A study of Mus musculus with 6 samples.

Results

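Cells depleted of MLL1 were compared directly with cells depleted of NFIB before differentiation, by setting the day 0 library of shMLL1 cells against the day 0 library of shNFIB cells. All genes with 20 or more counts in at least 1 of these 2 libraries were taken, which gave 14370 of the 55401 genes in the table and of the 29043 genes with any count. C3H10T1/2 is a mouse mesenchymal line that can be led to form bone, fat or muscle-like cells. The groups were shMLL1 (a hairpin against Kmt2a, the gene of MLL1), shNFIB (a hairpin against Nfib) and shControl (a control hairpin), each untreated at confluence (day 0) and after 7 days in osteogenic medium with β-glycerophosphate, ascorbic acid 2-phosphate and dexamethasone. All 6 libraries came from this same parental line, and all cells expressed a hairpin. Each target was represented by 1 knockdown line, sequenced once at each day, so that effects of the target, of the hairpin or line and of the individual culture cannot be told apart, and no difference at day 0 has a replicate check.

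NFIB is a transcription factor of the nuclear factor I family that binds the palindromic sequence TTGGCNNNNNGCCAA, or one arm of it, as a dimer. MLL1 is a histone methyltransferase that places methyl groups on lysine 4 of histone H3 at active promoters and is known for maintaining Hox gene expression. The study examined the 2 proteins as partners in a complex. The direct comparison asks where the RNA of cells that lost one partner differed from that of cells that lost the other. Levels are given in CPM, counts relative to library size, after the 6 libraries had been scaled with TMM, which takes a trimmed mean of the log ratios between libraries. A gene is called higher or lower when its scaled levels were more than 2-fold apart. The 95% intervals of ratios are exact Clopper-Pearson intervals and cover counting error alone, since no spread between cultures or libraries enters them. They also treat reads as independent molecules, which reads are not.

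The total count was 30838517 in shMLL1 and 34774066 in shNFIB at day 0, and from 21608680 to 32662704 in the other libraries. Of the genes compared, 13056 reached 20 counts in both libraries, 750 in shMLL1 alone and 564 in shNFIB alone. A count of 3, used as the floor for a gene at 0, corresponded to 0.0994 CPM in shMLL1 and 0.0950 CPM in shNFIB. Markers of immune and epithelial cells were near absent. The summed level of 10 immune markers was 2.75 CPM in shMLL1 and 1.74 CPM in shNFIB, with 5 of them at 0 in each library, Ptprc had 3 counts in each, and 10 epithelial markers summed to 8.52 and 6.30 CPM. The 8 endothelial markers summed to 12.1 and 27.6 CPM and the 9 neural markers to 90.7 and 204 CPM, and their part in the results was not tested. In these bulk samples, fewer cells of a type and less RNA per cell cannot be told apart. Of the mesenchymal markers that define the line, 22 of 24 were measured.

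Each hairpin target was lower in its own line than in the other. Nfib (chromosome 4, 82290173 to 82705750, GRCm38) stood at 65.5 CPM in shMLL1, 35.3 CPM in shNFIB and 116 CPM in shControl. Its level was 1.85-fold higher in shMLL1 than in shNFIB (95% interval 1.72 to 2.00), which did not pass the 2-fold limit (log2 difference 0.89, and 1.48, past the limit, when centred on the protein-coding genes of like exon length), and shMLL1 cells themselves held less Nfib RNA than shControl cells. At the later day shMLL1, shNFIB and shControl held 72.7, 8.15 and 83.5 CPM, a log2 difference of 3.16 between the knockdown lines. Kmt2a (chromosome 9, 44803355 to 44881296, where AC061963.1 lies on the opposite strand) stood at 30.9 CPM in shMLL1, 86.5 CPM in shNFIB and 74.7 CPM in shControl, and was 2.80-fold lower in shMLL1 than in shNFIB (95% interval 2.60 to 3.02). The relatives of Nfib differed as well. Nfix was at 115 CPM in shMLL1, 397 CPM in shNFIB and 350.0 CPM in shControl and Nfia at 9.21 CPM in shMLL1, 27.9 CPM in shNFIB and 19.7 CPM in shControl, so that both were more than 2-fold lower in shMLL1 than in shNFIB, while Nfic was at 150.4 CPM in shMLL1, 165 CPM in shNFIB and 293 CPM in shControl. Of the 17 genes of the MLL family and its core subunits, Kmt2a and Hcfc1 were lower (11.8%, near the 12.2% among all genes) and none was higher. Neither gene remained beyond 2-fold when compared with protein-coding genes of like exon length.

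Across all 14370 genes, 1540 (10.7%) were more than 2-fold higher in shMLL1 than in shNFIB and 1750 (12.2%) were more than 2-fold lower, which left 11080 within 2-fold. More than 4-fold apart were 487 genes that were higher and 353 that were lower, and more than 16-fold apart were 128 and 54. The whole counting interval lay beyond 2-fold for 909 of the higher and 1102 of the lower genes. The median log2 difference was -0.16, and scaling by library size shifted every difference by 0.11 to a median of -0.05. Higher genes were 46.8% of the genes called, and 59.6% when differences were centred on that median. The higher genes were less often protein-coding. Protein-coding genes made up 1012 of them (65.7%) against 1532 of the lower genes (87.5%), and 209 of the higher but 41 of the lower genes were processed pseudogenes, out of 801 measured. In shControl at day 0, the level lay between the 2 knockdown lines for 1100 of the higher genes and 1332 of the lower genes. It lay above both lines for 97 of the higher and 268 of the lower genes, and below both for 343 and 150.

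**Figure D1:**
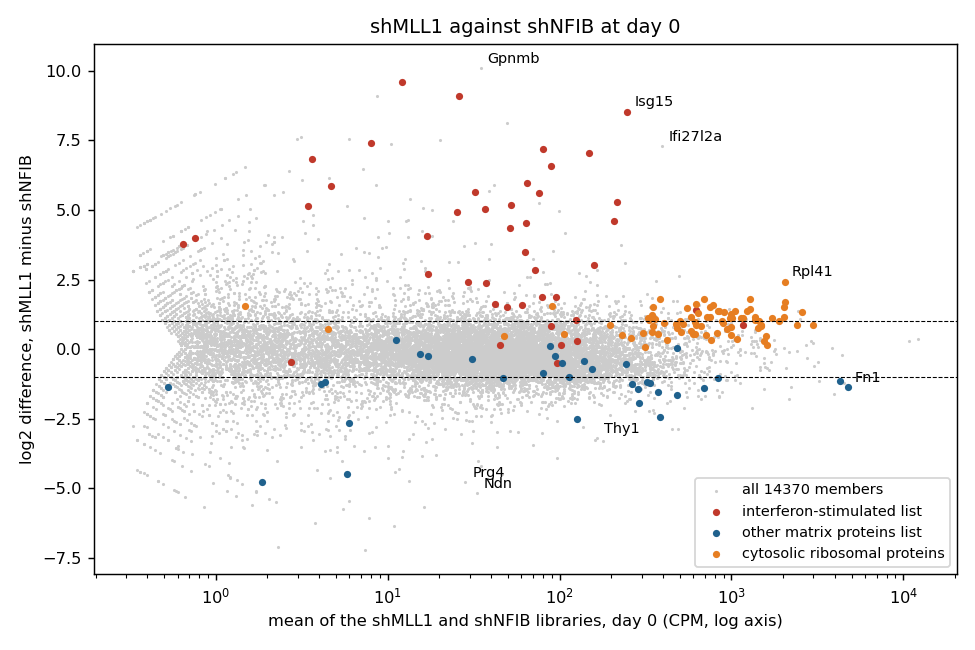
Log2 difference between the shMLL1 and shNFIB libraries at day 0 (vertical) against the mean level of both in CPM (horizontal, log axis), with 1 point for each of the 14370 genes and dashed lines at 2-fold. Interferon-stimulated genes (red) reach a log2 difference of 9.59, cytosolic ribosomal protein genes (orange) lie above 0 at the abundant end, and 20 of 33 matrix protein genes of the list (blue) lie below the lower line.

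Of the 48 lists, the interferon-stimulated genes had the median furthest from 0. These genes are switched on by interferons and encode proteins that restrict viruses, such as the OAS enzymes that make the activator of RNase L, the Mx GTPases, the IFIT proteins that bind foreign RNA, and the ubiquitin-like modifier ISG15. Of the 43 measured genes of the list (44 in all), 36 (83.7%, against 10.7% of all genes) were more than 2-fold higher in shMLL1 and none was lower. The median log2 difference of the list was 4.0, with genes at 0 counts set to the floor of 3 counts, and 22 of its genes were more than 16-fold apart. Of the 100 protein-coding genes furthest on the higher side, 20 were on this list.

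Isg15 (chromosome 4, 156199424 to 156200818) was at 492 CPM in shMLL1, 1.33 CPM in shNFIB and 38.1 CPM in shControl at day 0. The shMLL1 level was 370.0 times that of shNFIB (95% interval 274 to 514, from 14853 and 42 counts), with shControl between them. Ifi44 was at 295 CPM in shMLL1, 2.22 CPM in shNFIB and 18.6 CPM in shControl, and Usp18, which removes ISG15 from its targets, at 176 CPM in shMLL1, 1.84 CPM in shNFIB and 22.6 CPM in shControl. Bst2, the tetherin that holds budding virus at the cell surface, was at 423 CPM in shMLL1, 10.9 CPM in shNFIB and 69.3 CPM in shControl. In each of these genes the order of the libraries was the same, with shNFIB lowest and shMLL1 highest. Ifi27l2a, a gene that is not on the list and had the second largest difference among genes with 20 counts in both libraries, was at 781 CPM in shMLL1, 4.97 CPM in shNFIB and 101 CPM in shControl. The OAS genes were scarce in shNFIB. Oas2 was at 159 CPM in shMLL1, 1.08 CPM in shNFIB and 14.2 CPM in shControl. Oas3 had 735 counts in shMLL1 and 1 in shNFIB, a ratio of 769 with a counting interval from 138 to 30416. Oas1g had 1571 counts in shMLL1 and none in shNFIB. With the 0 set to the floor, Oas1g was 548-fold higher, with a lower counting limit of 445. It shares much of its sequence with Oas1a, and the division of reads between these copies is uncertain. Rsad2, the gene of viperin, had 485 counts against 0 and was 169-fold higher with the 0 set to the floor.

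The transcription factors of the pathway differed to unequal degrees. Irf7 was at 101 CPM in shMLL1, 2.82 CPM in shNFIB and 17.5 CPM in shControl, a 36-fold difference, while Irf9 was 3.65-fold higher in shMLL1 (95% interval 3.41 to 3.91) and Stat2 3.64-fold (3.42 to 3.87). Genes of the list within 2-fold included B2m, Eif2ak2, Irf1, Ifit2, Ifitm1 and Ifi27, with log2 differences from -0.49 to 0.86. Of the list genes that act in antigen processing, H2-K1 was 7.11-fold, Tap1 6.52-fold and Psmb9 35.1-fold higher, while B2m stood within the limit. Tap1 and Psmb9 overlap on opposite strands, and their counts cannot be separated without the strand setting of the counting. In shControl, the level lay between the lines for 35 of the 36 higher genes and below both for 1, Cmpk2, which had 0 counts there.

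**Figure D2:**
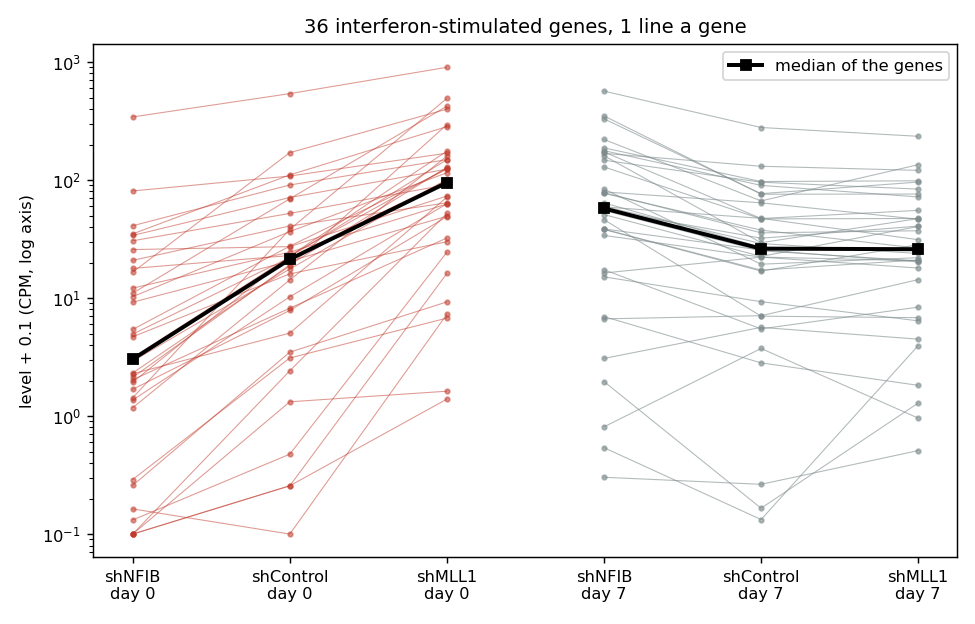
Level in CPM with 0.1 added (log axis) of the 36 interferon-stimulated genes that were more than 2-fold higher in shMLL1 than shNFIB at day 0, with 1 line a gene and the median in black, in the 3 day 0 libraries (left) and the 3 day 7 libraries (right). At day 0 the genes run upward from shNFIB to shMLL1, as the rule for showing them fixes, and at day 7 the median is highest in shNFIB.

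The sequences before these genes were examined for the core of the interferon-stimulated response element, written GAAANNGAAA and searched on both strands. The windows were RefSeq promoters on GRCm38.p6, which run from 250 bases before the gene's start to 50 after it. The core was found for 17 of the 30 higher genes of the list that matched a promoter (56.7%), for 77 of 756 higher protein-coding genes (10.2%), for 35 of 1162 lower ones (3.01%) and for 360 of 9477 protein-coding genes in all (3.80%). It lay before the start in 14 of the genes. Stretches around the match nearest the start are printed for 6 of them as examples. They are read from 5′ to 3′ on the strand of the gene, and capitals mark every match, overlapping ones included.
Isg15, chr4:156200850-156200909, minus strand: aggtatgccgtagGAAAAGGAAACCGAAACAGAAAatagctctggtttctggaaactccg
Oas3, chr5:120777700-120777759, minus strand: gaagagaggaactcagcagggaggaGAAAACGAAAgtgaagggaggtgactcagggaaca
Rsad2, chr12:26456538-26456597, minus strand: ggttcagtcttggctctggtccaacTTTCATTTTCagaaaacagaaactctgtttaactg
Bst2, chr8:71537562-71537621, minus strand: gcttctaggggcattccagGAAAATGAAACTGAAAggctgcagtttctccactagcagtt
Ifit1, chr19:34640779-34640838, plus strand: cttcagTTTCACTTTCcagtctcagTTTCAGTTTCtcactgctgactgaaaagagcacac
Gbp3, chr3:142559980-142560039, plus strand: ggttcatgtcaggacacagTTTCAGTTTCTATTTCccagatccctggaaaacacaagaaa
In Isg15 3 overlapping matches ran together, the nearest beginning 66 bases before the start. In Rsad2, Ifit1 and Gbp3 the letters were those of the opposite strand. The full NFI palindrome was rare and was found for 3 of the 756 higher genes, 0 of the 1162 lower genes and 5 of all 9477. A single arm, TTGGC, was found for 55.3% of the higher, 53.9% of the lower and 55.5% of all protein-coding genes with a promoter. A match of letters does not show a bound site.

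The order of the lines was not kept at day 7. Of the 42 list genes measured there, 3 were more than 2-fold higher in shMLL1 and 20 were more than 2-fold lower, and the median log2 difference was -0.93. At that day 8.08% of the 13600 genes measured at both days were higher and 8.73% lower. Of the 36 genes that were higher at day 0, 17 were more than 2-fold lower at day 7 and 2 were more than 2-fold higher again. The summed level of the list was 7103, 3080 and 1983 CPM in shMLL1, shControl and shNFIB at day 0, and 2738, 3146 and 6355 CPM at day 7. Ifit1 went from 16.5 CPM in shNFIB at day 0 to 330.0 CPM at day 7, while in shMLL1 it went from 399 to 96 CPM. The difference between the days was not tested, since each rests on 1 library per line. When both days were fitted together with edgeR's quasi-likelihood test, none of the 43 genes was called at a false discovery rate (FDR) of 5%, 5 had an unadjusted p under 0.05, and DESeq2 called 1.

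Chemokines and cytokines were higher in shMLL1 for 13 of 27 measured genes and lower for 3 (10.7% and 12.2% among all genes). Ccl20, which attracts cells bearing CCR6, had 160 counts against 2, a ratio of 83.7 with a counting interval from 22.8 to 697. Cxcl10, a ligand of CXCR3 that interferons induce, was at 13.9 CPM in shMLL1, 0.538 CPM in shNFIB and 2.16 CPM in shControl. Ccl5 was at 16.7 CPM in shMLL1, 1.01 CPM in shNFIB and 6.01 CPM in shControl. Both had shControl in the middle. Il6 was 3.96-fold and Ccl2, the main attractant of monocytes, 2.51-fold higher. The 3 lower genes were Cxcl12, Il33 and Il1r1, and of these Cxcl12, a chemokine of marrow stroma, was at 449.7 CPM in shMLL1, 1314 CPM in shNFIB and 1282 CPM in shControl. Lcn2, which sequesters bacterial iron carriers, was at 81.9 CPM in shMLL1, 1.36 CPM in shNFIB and 15.3 CPM in shControl, and Saa3 had 526 counts in shMLL1 and 1 in shNFIB, a ratio of 550.3 (interval from 98.3 to 21778). At day 7 the chemokine list had a median of -0.65, with 11 of 24 genes lower in shMLL1. With the days fitted together, edgeR's quasi-likelihood test called 1 gene of the list, the interleukin 13 receptor chain Il13ra1, at 6.02 (standard error 0.71, adjusted p = 0.0314).

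Glycolytic and hypoxia-induced genes were higher in shMLL1 for 13 of 29 measured genes (44.8%, against 10.7% of all genes) and lower for 1 (against 12.2%). Their median log2 difference was 0.94. HIF-1 induces many of these genes when oxygen is scarce. Ankrd37 was at 17.1 CPM in shMLL1, 1.39 CPM in shNFIB and 3.04 CPM in shControl. Bnip3, a receptor for the removal of mitochondria, was at 291 CPM in shMLL1, 40.6 CPM in shNFIB and 75.2 CPM in shControl, and Pdk1, the kinase that shuts off pyruvate dehydrogenase, at 115 CPM in shMLL1, 19.2 CPM in shNFIB and 39.5 CPM in shControl. Vegfa, the angiogenic growth factor, was 2.92-fold higher and Pgk1 2.39-fold. Each of these genes was highest in shMLL1 and lowest in shNFIB. Gapdh had 741 and 355 counts, few for this enzyme, and shares its sequence with many processed pseudogenes, so that its value is uncertain. The lower gene was Slc16a3, with 15 and 42 counts. The core of the hypoxia response element, ACGTG on either strand, was present in the promoters of 19 of 27 genes of this list (70.4%). Of these 27 genes, 12 were more than 2-fold higher. The core was found for 29.3% of all protein-coding genes with a promoter, 25.4% of the higher ones and 23.1% of the lower ones. It is shown in capitals for 3 of the higher genes, in stretches before the start.
Ankrd37, chr8:45999851-45999881, minus strand: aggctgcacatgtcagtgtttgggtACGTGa
Bnip3, chr7:138909584-138909638, minus strand: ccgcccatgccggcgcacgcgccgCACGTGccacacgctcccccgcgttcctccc
Pgk1, chrX:106186944-106186998, plus strand: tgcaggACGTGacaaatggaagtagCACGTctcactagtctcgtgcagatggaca
In the first, a match began 6 bases before the start, and each of the 3 promoters held 2 matches before the start, overlapping on the 2 strands in Bnip3. At day 7 the list had a median of -0.89, with 1 gene higher and 13 lower in shMLL1. The fit over both days called none of its 29 genes, with 7 at an unadjusted p under 0.05, and DESeq2 called 2.

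Targets of ATF4, the factor that raises amino acid synthesis and transport under stress, were higher for 6 of 27 measured genes and lower for none. Among all genes the shares were 10.7% and 12.2%. The 6 higher genes were Cth, Ddit3, Trib3, Chac1, Psph and Atf4 itself. Cth, which makes cysteine from cystathionine, was at 139 CPM in shMLL1, 20.1 CPM in shNFIB and 30.8 CPM in shControl. Ddit3, the gene of CHOP, was at 263 CPM in shMLL1, 67.8 CPM in shNFIB and 87.1 CPM in shControl and overlaps Mars on the opposite strand. Atf4 was at 956 CPM in shMLL1, 471 CPM in shNFIB and 500.0 CPM in shControl, just past the limit at 2.03-fold. The list's median went from 0.54 at day 0 to -0.95 at day 7, where 13 of its 27 genes were lower in shMLL1. The fit over both days called none of them (1 at an unadjusted p under 0.05, and DESeq2 none).

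The 5 most abundant protein-coding genes among the higher ones were Rps24, Lars2, Rpl5, Rpl41 and Rps3, of which all but Lars2 encode ribosomal proteins. A list of cytosolic ribosomal protein genes was therefore added after these values had been seen. Of 80 measured genes, 39 were more than 2-fold higher in shMLL1 and none was lower (10.7% and 12.2% among all genes). All 80 lay above 0, with log2 differences from 0.07 to 2.43 and a median of 1.0. Rpl41 was at 3447 CPM in shMLL1, 642 CPM in shNFIB and 1465 CPM in shControl, and Rps24 at 3693 CPM in shMLL1, 1469 CPM in shNFIB and 2174 CPM in shControl. At day 7 none of the 80 was 2-fold apart and the median was 0.05. Subunits of the respiratory chain encoded in the nucleus, a list added in the same way, were higher for 20 of 80 genes and lower for none. Among all genes 10.7% were higher and 12.2% lower. The median of these subunits was 0.74. Genes of both lists are short, and many have processed pseudogenes. Reads that fit several places were discarded, so that these levels are uncertain. When each gene was compared with the protein-coding genes of like exon length, the medians became 0.83 and 0.51, with 24 and 13 genes still more than 2-fold higher.

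Exon length moved with the day 0 difference across the whole transcriptome. The 12047 protein-coding genes were placed in 10 bins of exon length. In the bin of shortest genes (median 1374 bases) the median log2 difference was 0.40, and in the bin of longest genes (median 12608 bases) it was -0.59. Higher genes were 21.9% of the shortest bin and 4.07% of the longest, while lower genes went from 6.14% to 21.7%. At day 7 the same bins had medians of 0.05 and -0.11. Both day 0 libraries differed from shControl along exon length. Against shControl, the shMLL1 library went from 0.24 in the shortest to -0.29 in the longest bin, and the shNFIB library from -0.18 to 0.28. The part of length in the differences of single genes was not tested. Centred within these bins, 1158 protein-coding genes were higher and 936 lower (55.3% higher), against 1012 and 1532 without centring (39.8% higher).

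**Figure D3:**
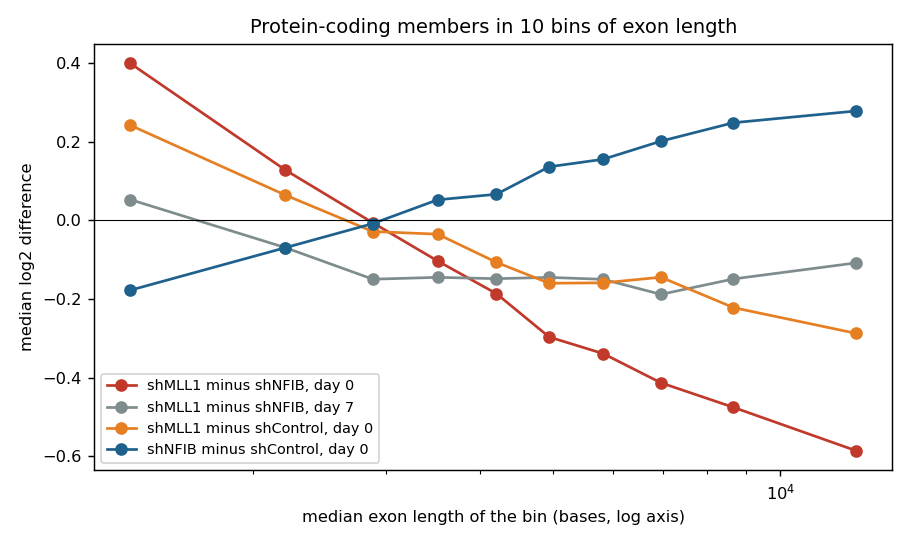
Median log2 difference (vertical) of the 12047 protein-coding genes in 10 bins of exon length (horizontal, median of the bin in bases, log axis), for shMLL1 minus shNFIB at both days and for each knockdown line minus shControl at day 0. The day 0 line for shMLL1 minus shNFIB descends from 0.40 to -0.59, and the day 7 line stays between 0.05 and -0.19.

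The 5 most abundant lower genes were Fn1, Col1a2, Bgn, Vim and Col3a1, that is, fibronectin, 2 fibrillar collagen chains, the proteoglycan biglycan and the filament protein vimentin. Fn1 was at 2647 CPM in shMLL1, 6823 CPM in shNFIB and 5684 CPM in shControl, and Vim at 1943 CPM in shMLL1, 5980 CPM in shNFIB and 4153 CPM in shControl. In both, shControl lay between the lines. Centred on exon length, only Vim of these 5 remained beyond 2-fold (log2 difference -1.33), with the others from -0.79 in Bgn to -0.63 in Col1a2. At day 7 Col3a1 had a log2 difference of 0.77. Of the list of matrix proteins other than collagens, 20 of 33 measured genes (60.6%, against 12.2% of all genes) were lower in shMLL1 and none was higher, with a median log2 difference of -1.18. The length-centred median was -0.69, with 10 genes lower. Nid1, the basement membrane linker nidogen, was at 37.4 CPM in shMLL1, 214 CPM in shNFIB and 65.6 CPM in shControl, and was called over both days at -2.09 (standard error 0.29, adjusted p = 0.0455) by edgeR's quasi-likelihood test. Aspn, the small proteoglycan asporin, was at 121 CPM in shMLL1, 649.6 CPM in shNFIB and 657 CPM in shControl. Mfap5, a protein of elastic microfibrils, was at 0.497 CPM in shMLL1, 11.1 CPM in shNFIB and 17.5 CPM in shControl. Aspn and Mfap5 were thus lowest in shMLL1 and near the shControl level or below it in shNFIB. At day 7 the median of the list was 0.04, with 6 genes higher and 6 lower.

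Collagens went both ways, with 10 of 22 measured genes lower in shMLL1 and 4 higher (12.2% and 10.7% among all genes). Col8a2, a network collagen, had the largest difference of the list and was at 3.68 CPM in shMLL1, 66.5 CPM in shNFIB and 57 CPM in shControl. It was 18.1-fold lower in shMLL1 than in shNFIB (95% interval 14.9 to 22.1). The collagen VI chains Col6a1, Col6a2 and Col6a3, which form beaded filaments around cells, were all lower, and Col6a2 was at 119 CPM in shMLL1, 589 CPM in shNFIB and 691 CPM in shControl. The higher chains were Col27a1, Col8a1, Col4a3 and Col18a1, and of these Col27a1 was at 3.15 CPM in shMLL1, 1.08 CPM in shNFIB and 11 CPM in shControl, highest in shControl. The list's median of -0.93 became -0.40 when centred on exon length, with 6 genes lower and 5 higher. Matrix proteases and their inhibitors were lower for 9 of 28 (32.1%, against 12.2% of all genes) and higher for 3 (10.7%, the same as among all genes). The collagenase Mmp13 had 132 counts in shMLL1, none in shNFIB and 5 in shControl at day 0. Its ratio was 46 with the 0 set to 3 counts, whereas at day 7 it was at 0.615, 15.5 and 0.426 CPM in shMLL1, shNFIB and shControl.

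Mesenchymal markers were lower in shMLL1 for 13 of 22 measured genes (12.2% among all genes), or 8 when centred on exon length, and Cd34 was the 1 higher gene. Thy1, the surface antigen CD90 by which mesenchymal stem cells are recognised, was at 32.4 CPM in shMLL1, 298 CPM in shNFIB and 68.1 CPM in shControl at day 0 and at 16.9, 169.9 and 27.9 CPM at day 7. It was thus highest in shNFIB and lowest in shMLL1 at both days, and over both days it differed by -3.27 (standard error 0.25, adjusted p = 0.0119) in edgeR's quasi-likelihood test. Prrx2, a homeobox gene of limb and facial mesenchyme, was at 34.8 CPM in shMLL1, 239.8 CPM in shNFIB and 86.1 CPM in shControl. Pdgfrb, the receptor of pericytes and fibroblasts, was 2.92-fold and Pdgfra 2.51-fold lower. Cd34, an antigen of stromal and blood progenitors, was at 6.36 CPM in shMLL1, 1.49 CPM in shNFIB and 1.28 CPM in shControl. The median of the list was -1.09 and -0.63 when centred on exon length. At day 7 it was -0.79, with 7 genes lower and 1 higher.

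**Figure D4:**
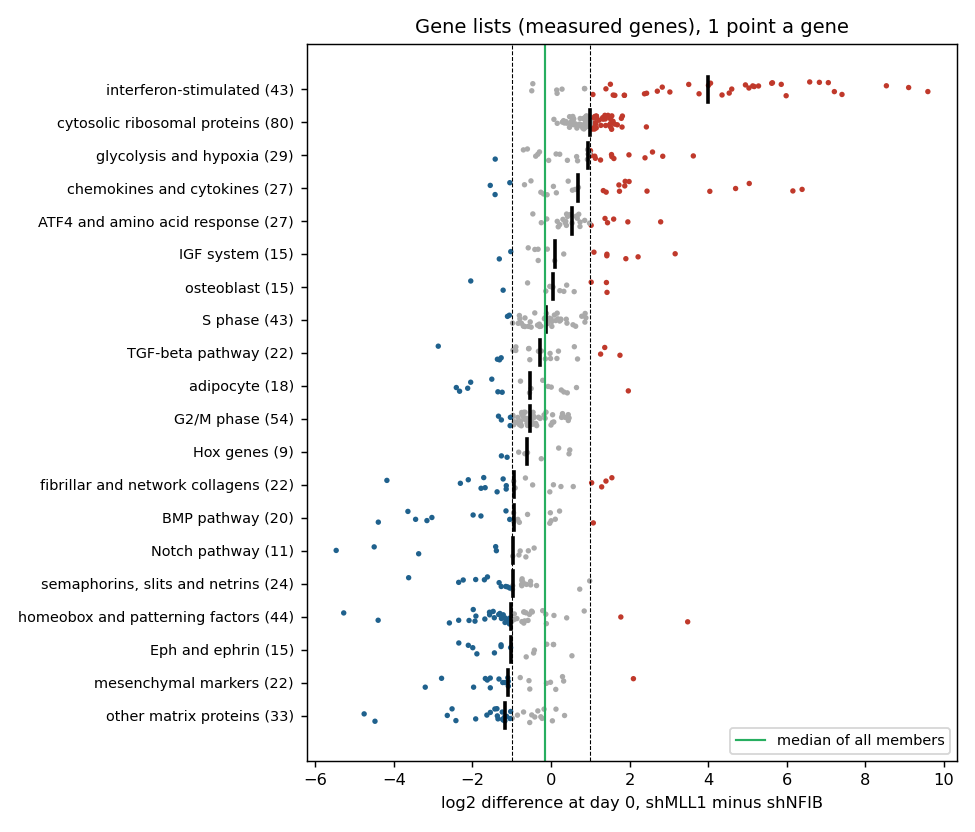
Log2 difference at day 0, shMLL1 minus shNFIB (horizontal), of each measured gene of 20 lists, with the number measured in brackets, the list median as a black bar, the median of all 14370 genes in green and dashed lines at 2-fold. The interferon-stimulated list has its median at 4.0 and the list of matrix proteins other than collagens at -1.18, while the S phase genes centre at -0.12.

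Homeobox and other patterning factors were lower in shMLL1 for 22 of 44 measured genes and higher for 2 (12.2% and 10.7% among all genes). Their median was -1.03 (-0.77 when centred on exon length, with 16 lower). Tbx1, the T-box factor of the pharyngeal arches, was at 0.994 CPM in shMLL1, 21 CPM in shNFIB and 18.3 CPM in shControl at day 0 and at 2.70, 28.1 and 47.7 CPM at day 7. Six2, a factor of kidney and craniofacial progenitors, was at 8.55 CPM in shMLL1, 51.3 CPM in shNFIB and 36.9 CPM in shControl. In both genes shMLL1 stood apart from shControl and shNFIB, and both were called over both days by edgeR's quasi-likelihood test, Tbx1 at -3.89 (standard error 0.36, adjusted p = 0.0189) and Six2 at -2.88 (standard error 0.31, adjusted p = 0.0262). Pax3, the factor of dermomyotome and neural crest, went the other way and was at 3.88 CPM in shMLL1, 0.348 CPM in shNFIB and 6.98 CPM in shControl at day 0 and at 3.85, 0.0338 and 3.08 CPM at day 7, lowest in shNFIB at both. Its fit over both days gave 4.54 (standard error 0.73, adjusted p = 0.0566) and missed the threshold. The Hox genes, the classic targets of MLL1, were mostly silent. Of 39, 9 were measured, all in the Hoxa cluster, and 2 of these were lower, Hoxa3 at 5.00 CPM in shMLL1, 12 CPM in shNFIB and 13.7 CPM in shControl and Hoxa5, 2.17-fold. Hoxa9 and Hoxa10 had log2 differences of 0.46 and 0.48. The Meis and Pbx cofactors of Hox proteins were lower for 4 of 9 (1 when centred on exon length), among them Meis3 at 4.57 CPM in shMLL1, 15.1 CPM in shNFIB and 12.2 CPM in shControl.

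Genes of the BMP pathway were lower in shMLL1 for 9 of 20 and higher for 1 (12.2% and 10.7% among all genes). BMP ligands act through SMAD1, SMAD5 and SMAD9 to induce the ID genes and the inhibitor Smad6. Id2, an inhibitor of basic helix-loop-helix factors, was at 11.8 CPM in shMLL1, 129 CPM in shNFIB and 90.3 CPM in shControl. Smad9 was at 1.82 CPM in shMLL1, 22.7 CPM in shNFIB and 12.6 CPM in shControl and Smad6 at 5.80 CPM in shMLL1, 47.4 CPM in shNFIB and 22.4 CPM in shControl. All 3 were more than 8-fold lower in shMLL1 than in shNFIB, with shControl between the lines. Smad6 was called over both days at -2.45 (standard error 0.34, adjusted p = 0.0455) by edgeR's quasi-likelihood test. Grem1, a secreted antagonist of BMPs, was the higher gene, at 463 CPM in shMLL1, 219.8 CPM in shNFIB and 113 CPM in shControl. The median of the list was -0.95 at day 0 (-0.66 when centred on exon length) and -0.85 at day 7.

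Other receptor and guidance families are given beside the 12.2% of all genes that were lower and the 10.7% that were higher. Notch pathway genes were lower for 5 of 11, ephrins and their receptors for 8 of 15, semaphorins, slits and netrins with their receptors for 11 of 24, cadherins and other adhesion genes for 8 of 12, and none of these lists held a higher gene. Centred on exon length, 5, 7, 7 and 3 of these genes were lower, and 1 gene of the semaphorin list was higher. The Notch ligand Jag2 was at 0.265 CPM in shMLL1, 11.7 CPM in shNFIB and 4.13 CPM in shControl, and the Notch target Hey2 had 3 counts in shMLL1 against 71 in shNFIB, a ratio of 22.6 with a counting interval from 7.43 to 112. Wnt pathway genes were lower for 9 of 22 and higher for 3, among them Tcf7 at 3.28 CPM in shMLL1, 0.380 CPM in shNFIB and 8.36 CPM in shControl. Among growth factors of receptor tyrosine kinases and their receptors, 4 of 31 were higher and 6 lower (10.7% and 12.2% among all genes). Hgf, the ligand of MET, was at 17.5 CPM in shMLL1, 142 CPM in shNFIB and 47.8 CPM in shControl, and the EGF receptor ligand Areg had 113 counts against 2, a ratio of 59.1 with a counting interval from 16 to 494. Of 16 integrins 4 were higher and 3 lower, against the same shares. In the IGF system 6 of 15 genes were higher and 2 lower, and Stc2, an inhibitor of the IGF-binding protein protease PAPP-A, was at 28.3 CPM in shMLL1, 3.17 CPM in shNFIB and 2.97 CPM in shControl.

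The regulators of the lineages that these cells can enter differed to unequal degrees. Pparg, the master regulator of fat cells, was at 12 CPM in shMLL1, 52.2 CPM in shNFIB and 27.1 CPM in shControl at day 0 and at 20.9, 84.2 and 42 CPM at day 7, and over both days it differed by -2.07 (standard error 0.23, adjusted p = 0.0262) in edgeR's quasi-likelihood test. Cebpa, which acts with it, was at 2.58 CPM in shMLL1, 7.35 CPM in shNFIB and 19 CPM in shControl, higher in shControl than in either knockdown line. Ebf1 was at 10.3 CPM in shMLL1, 54.9 CPM in shNFIB and 72.6 CPM in shControl. These 3 were among 7 of 18 adipocyte genes that were lower (12.2% among all genes). Klf15 was higher at 6.06 CPM in shMLL1, 1.55 CPM in shNFIB and 3.19 CPM in shControl. Dlx5, an osteogenic homeobox gene, was within 2-fold between the knockdown lines at day 0, where it was at 4.04 CPM in shMLL1, 4.43 CPM in shNFIB and 12.8 CPM in shControl, with a log2 difference of -0.13 and a 95% interval of -0.50 to 0.23. Its day 7 levels were 15.9, 3.69 and 52.5 CPM in shMLL1, shNFIB and shControl. Runx2, the factor required for osteoblast formation, was at 32.2 CPM in shMLL1, 31.4 CPM in shNFIB and 32.8 CPM in shControl, a log2 difference of 0.03 (-0.09 to 0.16). Sp7, Msx2, Myod1, Myog and Kdm4d had at most 11 counts in any day 0 library and were not compared. Of the osteoblast list, 3 of 15 genes were higher and 2 lower (10.7% and 12.2% among all genes). The median of the list was 0.05, and 0.38 when centred on exon length. Pth1r, the receptor of parathyroid hormone and 1 of the 2 lower genes, was at 0.961 CPM in shMLL1, 3.96 CPM in shNFIB and 7.73 CPM in shControl. Among chondrocyte genes 3 of 9 were lower (12.2% among all genes). Col2a1, the collagen of cartilage, was at 12 CPM in shMLL1, 182 CPM in shNFIB and 223 CPM in shControl, while Sox9, which induces it, differed 1.26-fold. Prg4, the joint lubricant lubricin, was at 1.99 CPM in shMLL1, 54.7 CPM in shNFIB and 0.908 CPM in shControl and was thus higher in shNFIB than in both other lines, but it overlaps Tpr on the opposite strand.

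Few cell cycle genes were 2-fold apart. Of 43 S phase genes none was higher and 2 were lower, and of 54 genes of G2 and mitosis none was higher and 4 were lower, below the share of lower genes among all genes (12.2%). The list medians were -0.12 and -0.54. Mki67 was among these 4, at 182 CPM in shMLL1, 437 CPM in shNFIB and 253 CPM in shControl. Sterol synthesis genes were lower for 2 of 23, polycomb genes for 5 of 26 and histone lysine demethylases for 1 of 17, with none higher in the 3 lists (12.2% lower and 10.7% higher among all genes). Centred on exon length, 1 sterol gene was lower, no polycomb gene was lower and 2 were higher, and no demethylase was 2-fold apart.

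Some genes were near absent from 1 of the 2 lines. Gpnmb, a membrane glycoprotein of macrophages, melanocytes and osteoblasts, had 2093 counts in shMLL1 and 2 in shNFIB, a ratio of 1095 with a counting interval from 303 to 9047. This ratio was the largest among protein-coding genes when a 0 was set to 3 counts, and genes at 0 such as Oas1g could lie above it. Gpnmb was at 69.4 CPM in shMLL1, 0.0633 CPM in shNFIB and 8.20 CPM in shControl at day 0 and at 135, 1.29 and 12.3 CPM at day 7, so that shNFIB was lowest at both. Gas6, the ligand of the TAM receptors, was at 11.9 CPM in shMLL1, 0.0633 CPM in shNFIB and 25.5 CPM in shControl at day 0 and at 717, 0.304 and 725 CPM at day 7, near absent from shNFIB alone. It overlaps Tmem255b on the opposite strand. Vnn3 had 189 counts in shMLL1 and 1 in shNFIB. In the other direction, Clec14a, a lectin of endothelial cells, had 0 counts in shMLL1, 142 in shNFIB and 52 in shControl. It was 45.2-fold lower with the 0 set to 3 counts, with a lower counting limit of 36.3. Rarres1 had 1 count in shMLL1 against 53, and Gm14409 2 against 101. Srp54b (1 against 145) has near-identical copies, and Cox20 (3 against 237) overlaps Hnrnpu on the opposite strand, so both values are uncertain.

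The genes furthest below 0 among genes with 20 counts in both libraries were Ndn, Prg4, Islr, Cd55, Tbx1, Selp, Col8a2, Pamr1, Col2a1, Adam23, Maob and Tmod2, from 35.8-fold in Ndn to 14.2-fold in Tmod2. Ndn, the imprinted gene of necdin (chromosome 7, 62346569 to 62350262), was at 1.79 CPM in shMLL1, 64 CPM in shNFIB and 20.1 CPM in shControl at day 0 and at 1.72, 39.8 and 9.91 CPM at day 7, with a 95% interval of the day 0 ratio of 27.3 to 47.8. Cd55, which protects cells from complement, was at 4.01 CPM in shMLL1, 88.5 CPM in shNFIB and 5.95 CPM in shControl. Selp, the adhesion molecule P-selectin, was at 1.13 CPM in shMLL1, 22.3 CPM in shNFIB and 2.97 CPM in shControl. Maob, the monoamine oxidase B, was at 1.56 CPM in shMLL1, 22.7 CPM in shNFIB and 2.38 CPM in shControl. In Cd55, Selp and Maob the shNFIB library was the one apart, with shMLL1 and shControl closer together. Islr was at 0.961 CPM in shMLL1, 25.8 CPM in shNFIB and 137 CPM in shControl, with a much higher level in shControl, but it overlaps Islr2 on the same strand. The 12 genes furthest above 0 were Isg15, Ifi27l2a, Oas2, Ifi44, Usp18, Oas1a, Lcn2, Iigp1, Oasl2, Aim2, Bst2 and Slfn2, from 370.0-fold in Isg15 to 38.2-fold in Slfn2. Of these, Aim2, the sensor of DNA in the cytosol, was at 26.3 CPM in shMLL1, 0.633 CPM in shNFIB and 9.05 CPM in shControl.

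The day 7 libraries of the same lines, which share no library with day 0, were set beside these differences. Of 1207 higher genes that were measured at day 7, 866 (71.7%) were again on the higher side, against 45.1% of all 13600 genes, and 336 (27.8%) were again more than 2-fold higher, against 8.08%. Of 1604 lower genes, 1184 (73.8%) were again on the lower side, against 54.9% of all, and 438 (27.3%) were again more than 2-fold lower, against 8.73%. More than 2-fold in the opposite direction were 112 of the higher and 88 of the lower genes. Across genes, the differences of the 2 days had a Pearson correlation of 0.38 and a Spearman correlation of 0.35, a description over genes that share the same cell lines and are not independent.

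Taking the 2 days as repeats of a line, edgeR's quasi-likelihood fit called 32 of 16742 genes (0.191%) higher in shMLL1 than in shNFIB and 48 (0.287%) lower at an FDR of 5%, with 1188 and 2129 at an unadjusted p under 0.05. These calls describe differences shared by both days. The 5 genes with the smallest p on the higher side were Gas6 at 10.47 (standard error 0.74, adjusted p = 0.0119), Aim2 at 4.60 (standard error 0.43, adjusted p = 0.0189), Gpnmb at 7.48 (standard error 0.71, adjusted p = 0.0189), BC028528 at 3.99 (standard error 0.41, adjusted p = 0.0260) and Sh3tc2 at 3.04 (standard error 0.31, adjusted p = 0.0260). On the lower side they were Ndn at -4.84 (standard error 0.34, adjusted p = 0.0119), Maob at -3.70 (standard error 0.28, adjusted p = 0.0119), Khdrbs3 at -6.42 (standard error 0.49, adjusted p = 0.0119), Thy1 at the value given above and Heph at -6.47 (standard error 0.54, adjusted p = 0.0158). Khdrbs3, an RNA-binding regulator of splicing, was at 0.265 CPM in shMLL1, 21.7 CPM in shNFIB and 2.82 CPM in shControl at day 0. Heph, the iron oxidase hephaestin, was at 0.630 CPM in shMLL1, 31.8 CPM in shNFIB and 1.03 CPM in shControl and overlaps Hsf3 on the opposite strand. In Khdrbs3 and Heph the shNFIB library was far above both others. The targets themselves missed the threshold in this fit, Nfib at 1.94 (standard error 0.51, adjusted p = 0.125) and Kmt2a at -1.46 (standard error 0.23, adjusted p = 0.0527).

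**Figure D5:**
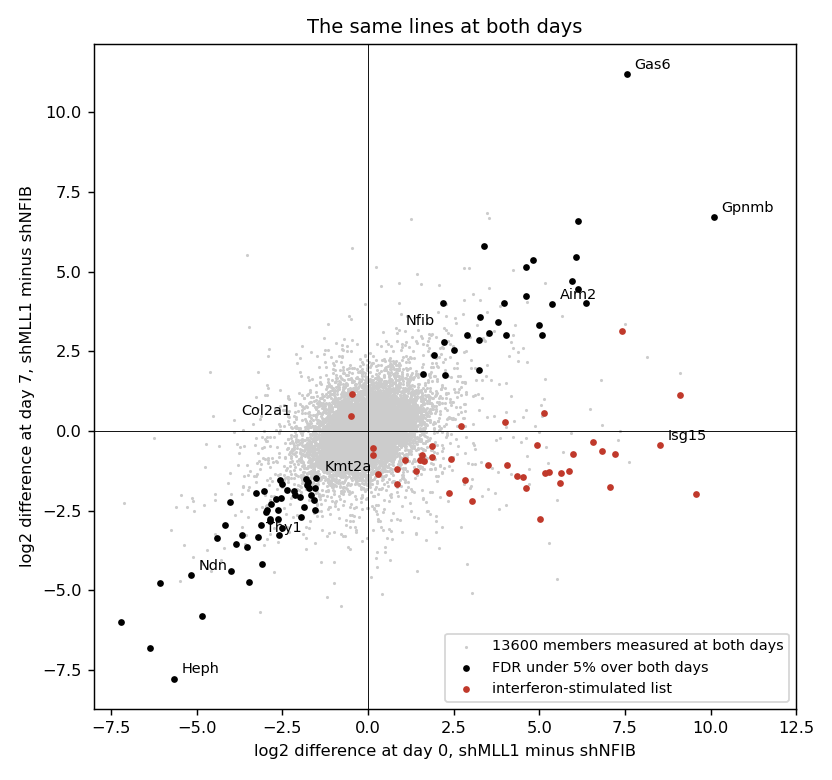
Log2 difference between shMLL1 and shNFIB at day 0 (horizontal) and at day 7 (vertical) for the 13600 genes measured at both days, with genes called over both days in black and the interferon-stimulated list in red. The genes in black lie where both days have the same direction, Ndn at -5.16 and -4.53 for example, and 30 of the 36 interferon-stimulated genes that were higher at day 0 lie below 0 at day 7.

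By chromosome, the median log2 difference at day 0 ranged from -0.32 on chromosome 1 (861 genes) to 0.01 on chromosome 3 (738 genes). On chromosome 1, 19.5% of the genes were lower and 11.1% higher, and on chromosome 3 10.2% were lower and 13.8% higher. Centred on exon length, the medians of protein-coding genes were -0.12 on chromosome 1 and 0.21 on chromosome 3, and at day 7 the medians were -0.22 and 0.01.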

How the data were processed

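Mouse C3H10T1/2 cells were profiled by RNA-seq (TruSeq libraries, paired reads) in 6 conditions with 1 library each. The authors deposited unnormalized counts for each Ensembl gene. Per the study's methods and the submitters' processing notes, the authors used Trimmomatic 0.39 for trimming, HISAT2 2.2.1 for alignment to GRCm38 (mm10), SAMtools 1.12 for a filter on mapping quality and HTSeq 0.11.1 for counting, after removal of PCR duplicates. The mapping filter discards reads that fit several places, which lowers genes with near-identical copies. The annotation release and strand setting are not given in the sources used here, so genes that overlap on opposite strands share uncertain reads. Besides those marked in the text, these were Ankrd37, Aspn, BC028528, Bnip3, Cd34, Cd55, Cebpa, Cxcl10, Fn1, Hoxa3, Irf7, Nfia, Nfic, Nfix, Nid1, Pth1r, Rpl5, Runx2, Selp and Usp18. No row of the table lacked a gene. Types, positions, exon lengths and overlaps were taken from GENCODE M21 (55141 of 55401 genes matched), and promoters from RefSeq (GRCm38.p6), matched by symbol for 10061 of the 14370 genes.

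Counts were scaled by TMM over the 6 libraries (edgeR 4.0.16, R 4.3.3). Genes with 20 or more counts in shMLL1 or shNFIB at day 0 were compared by the ratio of scaled counts, a gene at 0 being set to a floor of 3 counts, with exact Clopper-Pearson 95% intervals (Python 3.11.15, scipy 1.17.1). With 1 library per condition no test of day 0 was made. The line difference over both days was fitted by edgeR's quasi-likelihood method with line and day as terms over 6 libraries (common BCV 0.281, 2 residual degrees of freedom), with Benjamini-Hochberg adjustment; DESeq2 1.42.0 was an alternative. This fit assumes that the days vary as replicates would. Its standard errors were not estimated directly. Each is the absolute log2 difference divided by the square root of the F statistic of the test, and is approximate. The steps were tested on simulated counts.

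Gene lists (46, of which one symbol was not in the table, and 2 more added after the values were seen) were described by counts and medians. The members and lists were chosen with earlier results of these data known. Genes named are the hairpin targets and their families, the 12 protein-coding genes with the largest difference in each direction at 20 or more counts in both libraries, the 5 with the largest ratio in each direction at 3 or fewer counts in 1 library, the 5 most abundant called in each direction, the 5 with the smallest p in each direction over both days, members of the lists, and the lineage regulators of the study. Alternatives changed the scaling, the minimum count, the call, the gene set and the fit. Those on exon length, on centring and without the interferon list were chosen after seeing the data. An item withheld from the text is not reported here.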

Additional observations from a re-analysis of the deposited data

Results flagged for a closer look

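Of the genes named in the text, 22 were more than 2-fold apart in opposite directions at the 2 days. Higher in shMLL1 than in shNFIB at day 0 and lower at day 7 were 21 of them. On the log2 scale, the day 7 difference among interferon-stimulated genes and Slfn2 was -1.77 for Ifi44, -1.65 for Oasl2, -1.30 for Bst2, -1.02 for Slfn2, -2.0 for Oas3, -1.33 for Irf7, -1.78 for Ifit1, -1.42 for Gbp3 and -1.55 for H2-K1. Among chemokines and cytokines it was -1.65 for Cxcl10, -2.33 for Ccl5, -3.18 for Il6 and -2.71 for Ccl2. Among genes of the hypoxia and ATF4 lists it was -1.17 for Ankrd37, -1.27 for Gapdh, -1.67 for Cth, -2.09 for Trib3, -4.41 for Chac1, -1.47 for Psph and -1.29 for Atf4, and in the collagenase gene Mmp13 it was -4.65. In the other direction, Il33 was lower at day 0 (-1.42) and had a difference of 2.0 at day 7. Bst2 was at 423 and 10.9 CPM in shMLL1 and shNFIB at day 0 and at 71.8 and 177 CPM at day 7. The difference between the days was not tested, since each value rests on 1 library per line.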

How the results depend on the processing

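With 1 library per condition, the numbers of genes 2-fold apart at day 0 (1540 higher, 1750 lower) depended most on the call. There were 909 and 1102 when the whole counting interval had to pass 2-fold, 975 higher by the exact test at an assumed BCV of 0.2, 172 and 88 at 0.4, 4746 and 3661 with a minimum of 1 count, 1012 higher among protein-coding genes, and 936 lower among these when centred on exon length. All other alternatives (10 or 50 counts, other scalings, a prior count of 2, thinning, a BCV of 0.1, centring, without the interferon list) stayed within 1.5 times. Which direction held more genes depended on the scaling. Higher genes were 46.8% of those called in the main setting, 54.7% with DESeq2 size factors, 55.8% by library size alone and 54.9% with TMM over the 2 libraries compared. The calls over both days (32 higher, 48 lower) were 443 and 705 by DESeq2, 394 and 703 without a filter, and 0 and 0 without the day term (282 and 492 at an unadjusted p under 0.05). Leaving out any one of the 6 libraries raised them, to between 92 and 654 higher and between 103 and 659 lower. They were 98 and 114 without shControl, 121 and 185 without shNFIB and 221 and 375 without shMLL1 at day 0, and 92 and 103 without shControl, 158 and 145 without shNFIB and 654 and 659 without shMLL1 at day 7. In these fits the lone remaining library of a line is assumed to vary like the others. Of the 80 genes called, 75 to 78 were called again in the same direction when a library was left out, 79 by DESeq2 and 57 in the 4 libraries of these lines alone. Of genes more than 4-fold apart at day 0, 68.0% of the higher and 79.9% of the lower kept their side at day 7. No named gene or list median that was beyond 2-fold changed sign under the alternatives run for it. The day term sets the lines against each other within a day, and the labels carry no replicate numbers for any other pairing. Of the genes named in the text, Atf4, Bgn, Ccl2, Col1a2, Col3a1, Fn1, Hcfc1, Hoxa3, Il1r1, Kmt2a, Mki67 and Pdgfra came within 2-fold when centred on exon length, and Nfib passed it. The cause of these changes was not tested.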

Other observations

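Ankrd1, a target of YAP and TAZ in many cells, was at 192 CPM in shMLL1, 6.08 CPM in shNFIB and 2.32 CPM in shControl at day 0, 31.6-fold higher in shMLL1 than in shNFIB (95% interval 27.4 to 36.7), while 1 of the other 17 measured genes of that list, Axl, was lower and none was higher. In the list of NRF2 targets and antioxidant genes, 3 of 27 were higher and 3 lower at day 0 (11.1% each), near the 10.7% and 12.2% of all genes. At day 7 none was higher and 16 were lower, with a median log2 difference of -1.25. Gpx4, which reduces lipid peroxides, was at 852 CPM in shMLL1, 138 CPM in shNFIB and 557 CPM in shControl, so that shNFIB stood apart. Of the imprinted genes, 3 of 14 were higher and 4 lower (10.7% and 12.2% among all genes). Plagl1 was at 3.21 CPM in shMLL1, 0.665 CPM in shNFIB and 1.88 CPM in shControl and Peg10 at 2.65 CPM in shMLL1, 0.728 CPM in shNFIB and 3.07 CPM in shControl, both lowest in shNFIB, and Ndn was highest there.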
